A study of Saccharomyces cerevisiae with 10 samples.

Results

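The genes of the yeast mating system were examined in the ribosome profiles of 5 strains of Saccharomyces cerevisiae. The set holds 10 genes, chosen by name for their place in the pathway. They are the pheromone receptors STE2 (YFL026W) and STE3 (YKL178C), the a-factor genes MFA1 (YDR461W) and MFA2 (YNL145W), the alpha-factor gene MF(ALPHA)1 (YPL187W), the a-factor transporter STE6 (YKL209C), the protease BAR1 (YIL015W), the G protein subunits STE4 (YOR212W) and GPA1 (YHR005C), and the fusion gene FUS1 (YCL027W). Of the 5373 genes listed in at least 1 strain, 9 are members. MF(ALPHA)1 is listed in none, STE3 in 2 strains and the other 8 members in all 5.

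The strains share the S288C background, and the study used them to ask whether the supply of single tRNAs changes translation. AGG-OE carries the arginine tRNA gene tR(CCU)J, whose product reads AGG codons, on the multicopy URA-marked plasmid pRS426. AGG-QC carries on the same plasmid the tRNA gene tR(UCU)B with its anticodon changed to CCU, so that it reads AGG as well. WT-URA is wild-type yeast with pRS426 and no tRNA insert. ACA-K lacks 3 of the 4 genes for the threonine tRNA that reads ACA codons, namely tT(UGU)G2, tT(UGU)H and tT(UGU)P, each replaced by a drug resistance marker, and wild-type yeast has neither plasmid nor deletion. All cultures were collected at an optical density of 0.6 by filtering and freezing, and no pheromone treatment is stated. Each strain gave 1 library of ribosome-protected fragments (footprints) and 1 of poly(A)-selected mRNA, so no value has a replicate error and no test between strains was possible. Intervals given below are 95% intervals for counting error of footprints alone.

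Haploid yeast cells are of mating type a or alpha. Cells of type a make a-factor from MFA1 and MFA2, export it through Ste6, sense alpha-factor through the receptor Ste2 and destroy it with the secreted protease Bar1, while alpha cells make alpha-factor and carry the receptor Ste3. Both receptors act through one heterotrimeric G protein, in which Gpa1 holds the Ste4-Ste18 pair inactive until pheromone binds, and freed Ste4-Ste18 starts a MAP kinase cascade that turns on genes such as FUS1. The labels give no mating type for any strain.

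Sequencing depth and the shape of the profiles differed between the libraries. The tables hold 6011287 to 9127829 footprints in the 3 plasmid strains and 21855176 (ACA-K) and 29706058 (wild-type) in the strains without plasmid. The plasmid marker URA3 is listed in AGG-OE, AGG-QC and WT-URA and not in ACA-K or wild-type. Across the codons of a gene, footprint counts of 2 plasmid strains had a median Pearson r of 0.768 to 0.803 over 4087 genes, those of a plasmid strain and a plasmid-free strain 0.382 to 0.443, and those of ACA-K and wild-type 0.586. The points of such an r are codons of 1 gene in 2 libraries, and the value is a description. In all 8 members listed throughout, the pairs of plasmid strains had the highest r. In GPA1 and MFA2, ACA-K and wild-type (0.530 and 0.824) lay below the highest r of a plasmid and a plasmid-free strain (0.598 and 0.862). STE2 had r of 0.905 to 0.919 among plasmid strains, 0.581 to 0.695 across the sets and 0.712 between ACA-K and wild-type. FUS1, with the fewest footprints, had 0.631 to 0.696, 0.0264 to 0.151 and 0.256 for the same pairs. The plasmid cannot be told apart from whatever else sets the plasmid libraries apart, and this touches every ratio of WT-URA over wild-type below.

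**Figure D1:**
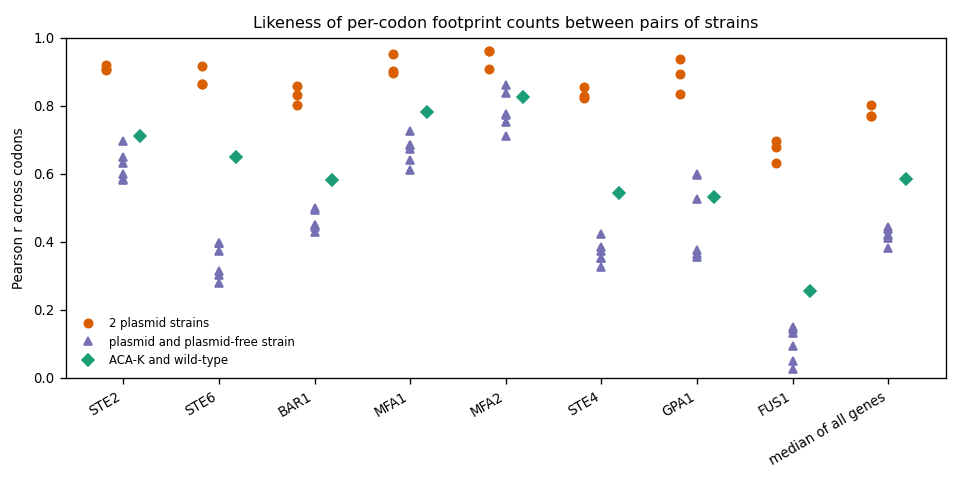
Pearson r between per-codon footprint counts of pairs of strains (vertical axis, no unit) for each member listed in all 5 strains and for the median of 4087 genes (horizontal axis). Circles are pairs of plasmid strains, triangles pair a plasmid strain with ACA-K or wild-type, and diamonds are ACA-K with wild-type. For STE6 the circles lie at 0.863 to 0.915 and the triangles at 0.279 to 0.397.

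Levels are given as footprints per 1000000 (FPM) and mRNA signal per 1000000 (MPM), relative to the sums over the 4964 genes listed in all 5 strains. The unit of the deposited mRNA sum is not named in the files, so mRNA values are relative signal and carry no counting interval. The ratio of FPM to MPM is called TE here, for translational efficiency. A TE of 1 means that a gene held the same share of footprints as of mRNA signal.

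The pheromone genes MFA1 and MFA2 code for the 2 precursors of a-factor, which are cut and lipid-modified to 1 short peptide. They are among the shortest genes in the tables, with 36 and 38 sense codons. MFA1 had 1909 footprints in AGG-OE, 1262 in AGG-QC, 1773 in WT-URA, 945 in ACA-K and 1945 in wild-type, or 211, 212, 211, 43.5 and 65.8 FPM in the same order. The 3 plasmid strains thus lay within a narrow range, and both plasmid-free strains lay well below it. Its mRNA signal was 151, 175, 138, 49.7 and 73.7 MPM. MFA2 had 2812, 2140, 2963, 2252 and 3721 footprints, which are 311, 359, 353, 104 and 126 FPM. Its mRNA signal was 166, 267, 170, 90.5 and 79.3 MPM, highest in AGG-QC. Per codon, both a-factor genes ranked between percentile 91.1 and 99.0 of the listed genes by footprints and between 92.4 and 98.6 by mRNA signal. MFA2 had a TE of 1.87 in AGG-OE, 1.34 in AGG-QC, 2.07 in WT-URA, 1.14 in ACA-K and 1.59 in wild-type, the highest among the members in every strain.

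Footprints on both genes were concentrated at a few codons, counted from the start codon as 1. In MFA2, codon 28 held 16.3% of the footprints in AGG-OE, 17.6% in AGG-QC, 12.4% in WT-URA, 17.9% in ACA-K and 14.9% in wild-type. Codon 24 of MFA2 held 13.2%, 18.4% and 12.1% in the 3 plasmid strains against 6.04% in ACA-K and 6.56% in wild-type. The other windows given here were, like these, picked after the profiles had been seen. Codons 29 to 33 of MFA2 held 4.02%, 3.88% and 4.05% in the plasmid strains, 16.8% (95% exact binomial interval 15.3 to 18.4) in ACA-K and 12.9% (11.9 to 14.0) in wild-type. The same codons of MFA1 held 6.60%, 5.78% and 6.94% in the plasmid strains, 19.0% (16.6 to 21.7) in ACA-K and 18.4% (16.7 to 20.1) in wild-type. At codon 30 of MFA1 there were 1, 1 and 0 footprints in AGG-OE, AGG-QC and WT-URA, 16 in ACA-K and 113 in wild-type. As shares these were 1.69% (0.97 to 2.73) in ACA-K and 5.81% (4.81 to 6.94) in wild-type, so the plasmid-free strains also differed from each other there. At codon 4 the same gene had 206, 78 and 146 footprints in the plasmid strains, and 26 and 21 in ACA-K and wild-type. The 2 sets of libraries therefore differed in where the footprints of the a-factor genes were assigned, and the part of this in the gene totals was not tested.

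**Figure D2:**
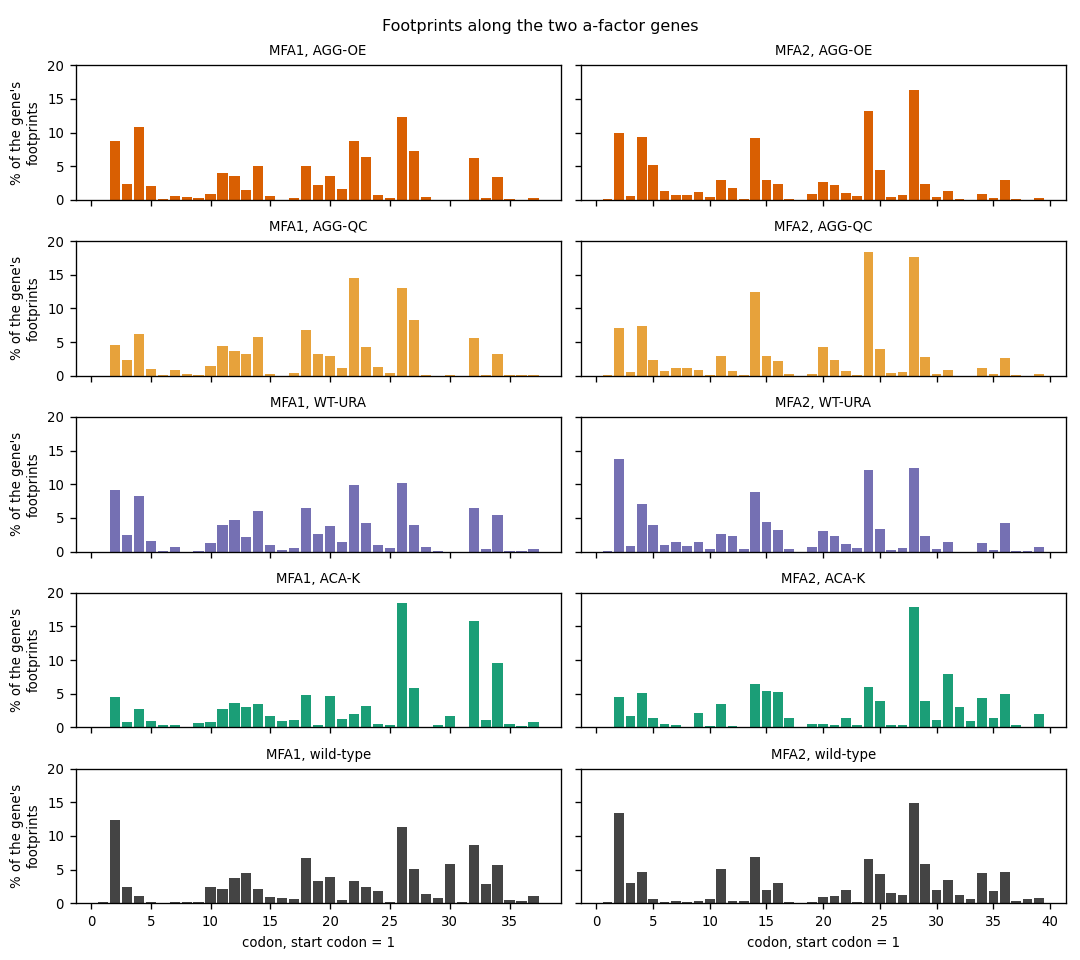
Share of a gene's footprints at each codon (vertical axis, percent) along MFA1 and MFA2 (horizontal axis, codon number from the start codon), 1 panel per strain. In MFA2, codon 24 reaches 12.1% to 18.4% in the 3 plasmid strains and 6.04% and 6.56% in ACA-K and wild-type.

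STE2, the receptor for alpha-factor, had 3719 footprints in AGG-OE, 2550 in AGG-QC, 3378 in WT-URA, 4626 in ACA-K and 8476 in wild-type. These are 411, 428, 403, 213 and 287 FPM. Its mRNA signal was 816, 862, 888, 369 and 443 MPM. Both measures were higher in the 3 plasmid strains than in either plasmid-free strain. The median gene was also higher in WT-URA than in wild-type, with log2 ratios of 0.31 for mRNA and 0.38 for footprints. In that comparison STE2 had a footprint ratio of 1.40 (1.35 to 1.46), at percentile 58.1 of all genes. Its mRNA ratio of 2.01 stood at percentile 88.9. Per codon STE2 stood at percentile 81.9 to 88.8 by footprints and 87.7 to 94.8 by mRNA signal, and its TE ran from 0.453 in WT-URA to 0.648 in wild-type.

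STE6 codes for the ABC transporter that exports a-factor and is the longest member, with 1290 sense codons. It had 216, 237 and 212 FPM in AGG-OE, AGG-QC and WT-URA, 163 in ACA-K and 200 in wild-type. Its mRNA signal was 460, 382, 482, 318 and 361 MPM. Codon 2 alone held 7.31%, 4.46% and 6.57% of its footprints in the plasmid strains, against 0.508% in ACA-K and 0.711% in wild-type. The median share of codon 2 over all genes with enough footprints was likewise higher in the plasmid strains, at 2.45%, 1.57% and 2.66%, against 0.401% in ACA-K and 1.08% in wild-type. In the a-factor genes wild-type did not lie below the plasmid strains. ACA-K lay below them in MFA2 but about level with AGG-QC in MFA1, with 43 of 945 footprints against 58 of 1262. Codon 2 of MFA1 held 4.60% to 9.14% in the plasmid strains, 4.55% in ACA-K and 12.3% in wild-type. That of MFA2 held 7.15% to 13.7% in the plasmid strains, 4.53% in ACA-K and 13.5% in wild-type. BAR1, the secreted protease that degrades alpha-factor, had 271, 307 and 246 FPM in the plasmid strains, 147 in ACA-K and 251 in wild-type. Its wild-type level thus fell among those of the plasmid strains, and ACA-K was lowest. Its mRNA signal was 329, 329, 347, 150 and 215 MPM, so that its TE was highest in wild-type, at 1.17.

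The G protein genes STE4 and GPA1 had levels close to each other. STE4, the beta subunit, had 98.6, 125 and 114 FPM in AGG-OE, AGG-QC and WT-URA, 80.8 in ACA-K and 86.0 in wild-type. GPA1, the alpha subunit, had 98.5, 113, 109, 87.7 and 89.3 FPM. Their mRNA signal ranged from 214 (ACA-K) to 326 MPM (WT-URA) for STE4 and from 218 (ACA-K) to 317 MPM (AGG-OE) for GPA1. The TE of both was low among listed genes, at percentile 21.6 to 25.7 for STE4 and 17.1 to 29.1 for GPA1. In GPA1, codon 2 held 10.1%, 8.74% and 12.1% of the footprints in the plasmid strains, against 1.10% in ACA-K and 2.96% in wild-type, beside the medians over all genes given for STE6.

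FUS1, a membrane protein needed for cell fusion and a classical target of the pathway, was the weakest of the members listed in all strains. It had 198 footprints in AGG-OE, 140 in AGG-QC, 181 in WT-URA, 99 in ACA-K and 378 in wild-type, or 21.9, 23.5, 21.6, 4.56 and 12.8 FPM. ACA-K was lowest, and its interval of 3.70 to 5.55 lay below that of every other strain. The mRNA signal was 35.2, 38.1, 39.9, 16.5 and 25.6 MPM. Per codon FUS1 stood at percentile 5.25 to 19.8 by footprints and 4.97 to 11.1 by mRNA signal.

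Ordered by FPM per codon, the 8 genes took the same order in every strain, MFA2, MFA1, STE2, BAR1, STE4, GPA1, STE6 and FUS1. In wild-type the levels per codon were 3.23, 1.78, 0.664, 0.427, 0.203, 0.189, 0.155 and 0.0249 FPM. Of the 7 neighbouring pairs in each strain, the pair STE4 and GPA1 in ACA-K alone had an interval that included 1 (ratio 1.03, interval 0.963 to 1.10). The step between MFA1 and STE2 was 5.99-fold in AGG-OE, 5.78-fold in AGG-QC and 6.13-fold in WT-URA, and 2.39-fold in ACA-K and 2.68-fold in wild-type. MFA1 and MFA2 are related genes, and only uniquely mapped reads were counted. Reads from any stretch they share would be missing from both, so their levels and the step between them are uncertain. How far they share sequence was not analysed.

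**Figure D3:**
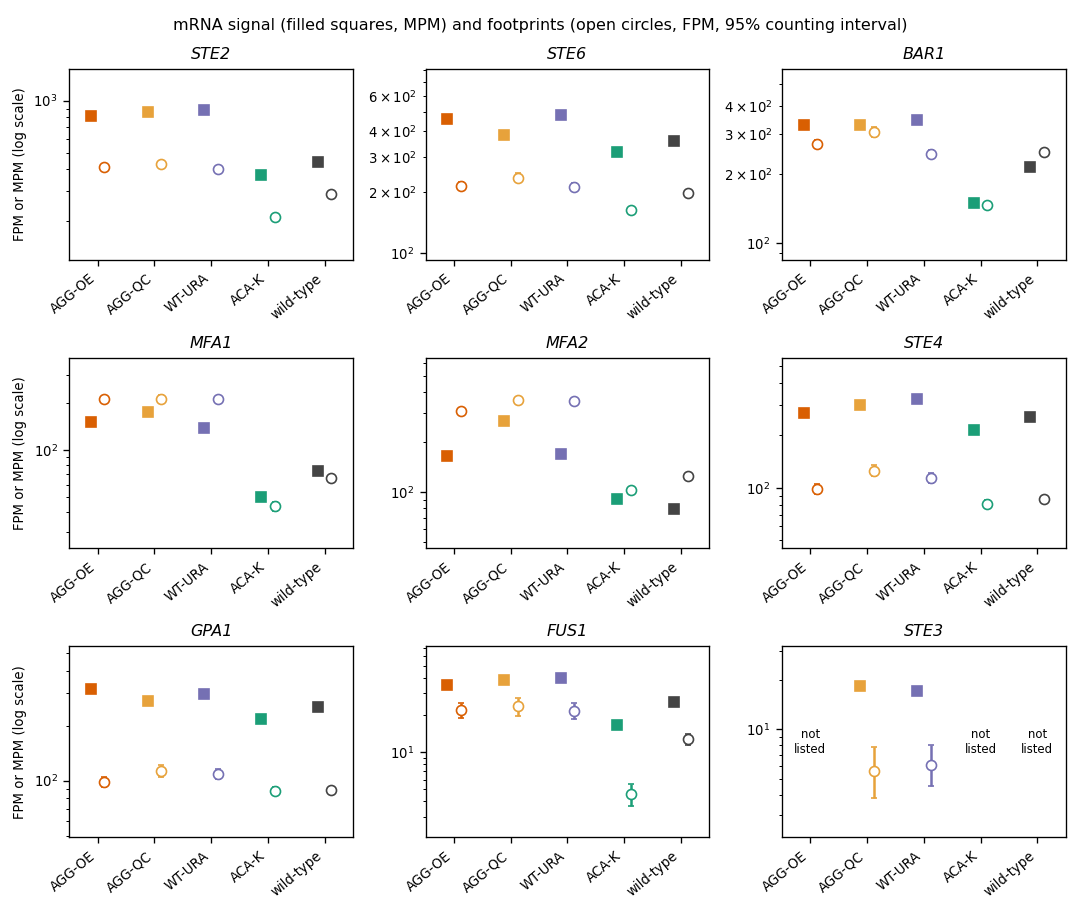
Levels (vertical axis, FPM or MPM, log scale with its own range in each panel) of the 9 members listed in any strain, by strain. Filled squares are mRNA signal, and open circles are footprints with 95% counting intervals. MFA1 footprints lie at 211 to 212 FPM in the 3 plasmid strains and at 43.5 and 65.8 in ACA-K and wild-type.

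The listing of the members split by the mating type they are known from. All 7 genes of an a-specific list (the 5 members STE2, STE6, BAR1, MFA1 and MFA2, with ASG7 and AGA2) are listed in every strain. Of 5 alpha-specific genes, AFB1 is listed in all strains, SAG1, the alpha-agglutinin, in 4 with 7 to 23 footprints, STE3 in 2, and the alpha-factor genes MF(ALPHA)1 and MF(ALPHA)2 in none. The authors left out genes with thin coverage and kept uniquely mapped reads. Alpha-factor genes hold repeated copies of the peptide, and whether they were unlisted for low expression or for repeats cannot be told apart here. Of 6 genes of the mating-type loci, HMRA1, which codes for the a1 regulator, is listed in all strains with 325 footprints in AGG-OE, 308 in AGG-QC, 401 in WT-URA, 480 in ACA-K and 733 in wild-type. HMRA2 and the alpha1 and alpha2 genes are listed in none, but each alpha gene exists at both MAT and HML in the RefSeq table of assembly R64, so that its reads have more than 1 place to map. The same table has no a1 gene at MAT, so reads from MAT and HMR cannot be told apart in the HMRA1 values. AFB1, which codes for the a-factor barrier protein of alpha cells, had 109 footprints in AGG-OE, 68 in AGG-QC, 103 in WT-URA, 140 in ACA-K and 371 in wild-type. Among the listed genes it stood at percentile 19.8 to 34.9 by footprints per codon. By mRNA signal per codon it stood lower, at percentile 0.0393 (AGG-OE) to 8.22 (ACA-K).

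STE3, the receptor for a-factor in alpha cells, is listed in AGG-QC with 33 footprints and a summed mRNA signal of 1762, and in WT-URA with 51 footprints and 1168. This is 5.54 FPM (3.81 to 7.78) in AGG-QC and 6.08 (4.53 to 7.99) in WT-URA. STE2, of similar length, had 2550 and 3378 footprints in the same strains. STE3 stood at percentile 3.55 and 3.05 by footprints per codon and 2.80 and 0.645 by mRNA signal per codon. Among listed genes within 20% of its length, 33 of 1220 in AGG-QC and 7 of 1198 in WT-URA had a lower mRNA signal. The lowest signals of such genes were 910 and 895 in these strains and 794, 836 and 999 in AGG-OE, ACA-K and wild-type. STE3 thus lay near the low end of the listed genes of its length by mRNA signal. The authors' mRNA filter was the share of coding positions with counts, so how far STE3 lay from the edge of listing is unknown. Its listing pattern is shared by 15 genes, itself included. Absence from 3 tables does not show a lower level there, since a gene can cross that edge by a small step, and no value can be given for AGG-OE, ACA-K or wild-type.

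The footprints on STE3 lay almost all past the first 100 codons. None of the 33 in AGG-QC fell in the first 100 codons (95% exact binomial interval 0 to 10.6%, and 3 counts of 33 would be 9.09%), and the first was at codon 149. In WT-URA, 1 of 51 did, or 1.96% (95% exact binomial interval 0.0496 to 10.4), at codon 56. The median share in the first 100 codons was 37.2% over 1221 genes of similar length in AGG-QC and 40.9% over 1199 in WT-URA. Among such genes with at most 100 footprints, the median was 43.5% over 173 genes and 49.0% over 90, and 7 and 5 of them had a share as low as STE3 or lower. Codons 201 to 300 held 23 of the 33 footprints in AGG-QC and 24 of the 51 in WT-URA, and 7 and 20 lay past codon 300. No codon had more than 3 footprints, so the counts did not come from 1 site.

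**Figure D4:**
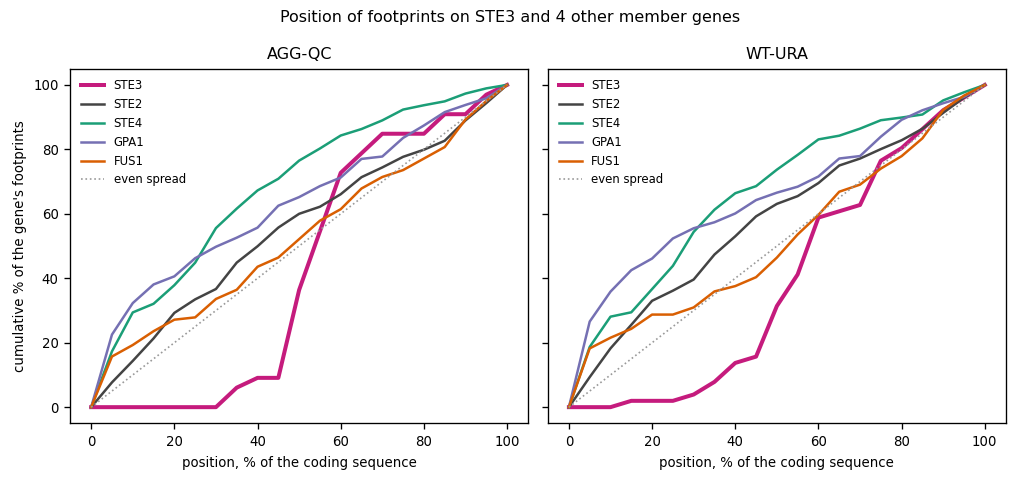
Cumulative share of a gene's footprints (vertical axis, percent) by position along the coding sequence (horizontal axis, percent of its length) for STE3 and 4 other members in AGG-QC and WT-URA; the dotted line is an even spread. STE3 rests on 33 footprints in AGG-QC and 51 in WT-URA, and its line stays near 0 over the part where the other genes have already gathered a large share.

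Each mutant was next set against the strain without its tRNA change. With 1 library per strain, a gene was called where the scaled levels differed at least 2-fold, a rule of size and not a test.

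ACA-K was first set against wild-type. No member passed 2-fold in mRNA signal, where 0.485% of all genes did. By footprints 1 of 8 did, FUS1, where 1.38% of all genes passed in either direction and 0.854% were lower. FUS1 had 4.56 FPM in ACA-K against 12.8 in wild-type, a ratio of 0.356 (0.282 to 0.445), and its mRNA ratio was 0.644. For the mRNA ratio of a bulk culture, fewer expressing cells and less RNA per cell cannot be told apart. The footprint ratio was lower than the mRNA ratio, which left FUS1 a TE ratio of 0.553, and the cause was not tested. The FUS1 call rests on 99 footprints in ACA-K, too few for the minimum count that one alternative set in both strains, and with a pseudo-count of 1 per codon and without the first 100 codons its log2 ratio was -0.12 in place of -1.49. That setting adds a count at each of 412 codons, where FUS1 had 81 footprints in ACA-K and 315 in wild-type. It therefore draws so sparse a gene toward no change and cannot decide whether the call holds. BAR1 followed with a footprint ratio of 0.584 (0.560 to 0.608) and an mRNA ratio of 0.699, and MFA1 with 0.661 (0.611 to 0.714) and 0.675. STE2 had a footprint ratio of 0.742 (0.716 to 0.769), STE6 of 0.816 (0.782 to 0.851) and MFA2 of 0.823 (0.781 to 0.867). STE4 lay at 0.939 (0.883 to 0.998), and the interval of GPA1, 0.925 to 1.04, included 1. All 8 ratios were below 1, except that the log2 ratio of GPA1 was 0.01 under median-of-ratios scaling and 0.04 with the pseudo-count, and that of STE4 was 0.02 without the first codons and 0.09 with the pseudo-count. With the pseudo-count the median of all genes was itself 0.14, so GPA1 and STE4 both lay below it. The 8 footprint values had a median log2 ratio of -0.36 against -0.03 over 5152 genes. The 8 mRNA values had a median of -0.26 against -0.08, with MFA2 alone above 0. No member passed 2-fold in TE, where 1.59% of all genes did. The lowest TE ratios were those of FUS1 (0.553) and MFA2 (0.721), at percentile 0.893 and 3.82 of all genes.

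The 2 genes of a-agglutinin, which holds mating cells together, were lower in the same comparison. AGA2, the binding subunit of a-agglutinin, passed 2-fold in both measures, with an mRNA log2 ratio of -1.32 and 169 footprints in ACA-K against 560 in wild-type (ratio 0.410, interval 0.343 to 0.488). AGA1, its pheromone-induced anchor subunit, which was picked after its values had been seen, had 288 footprints in ACA-K and 1092 in wild-type, a ratio of 0.359 (0.314 to 0.409), with an mRNA ratio of 0.825. The TE ratio of AGA1 was 0.434. The 7 genes of the a-specific list, 5 of them members, had median log2 ratios of -0.60 for footprints and -0.52 for mRNA. The medians of all genes were -0.03 and -0.08, and AGA2 was the 1 a-specific gene past 2-fold in each measure. Of the 17 genes of the G protein and MAP kinase list, none passed 2-fold in mRNA, footprints or TE, and their median footprint log2 ratio was -0.05. The 8 genes that process the pheromones also had none past 2-fold, with a median of 0.04. Over all lists, 3 of the 48 genes with a value were past 2-fold lower by footprints, 1 by mRNA and 1 by TE, and none was past it in the other direction. Of all genes, 0.854% were past it lower by footprints. In either direction 0.485% passed by mRNA and 1.59% by TE.

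In AGG-OE against WT-URA, no member passed 2-fold in mRNA signal (0.657% of all genes did), footprints (1.17%) or TE (0.896%). The log2 ratios of the 8 members ran from -0.27 (STE4) to 0.13 (MFA1) for mRNA signal and from -0.21 (STE4) to 0.14 (BAR1) for footprints. The median of all genes was -0.10 for mRNA and -0.11 for footprints, and relative to it STE4 was -0.17 and -0.10 and BAR1 0.02 and 0.25. MFA1 had a footprint ratio of 0.998 (0.935 to 1.07) and FUS1 of 1.01 (0.825 to 1.25). None of the 47 genes with a value among the 63 of all lists passed 2-fold in any of the 3 measures.

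AGG-QC was set against the same WT-URA libraries, so these ratios and those of AGG-OE share a denominator. No member passed 2-fold in mRNA signal (0.927% of all genes did), footprints (1.66%) or TE (1.01%). The a-factor genes had more mRNA signal in AGG-QC than in WT-URA, with footprint intervals that included 1. MFA2 had 267 MPM in AGG-QC against 170 MPM in WT-URA, a ratio of 1.57 at percentile 97.1 of all genes, and a footprint ratio of 1.02 (0.961 to 1.08). Its TE ratio was 0.647, at percentile 1.81. MFA1 had an mRNA ratio of 1.27, a footprint ratio of 1.002 (0.932 to 1.08) and a TE ratio of 0.791. STE6 and BAR1 went the other way in TE, at 1.40 and 1.32, with footprint ratios of 1.11 (1.04 to 1.20) and 1.25 (1.17 to 1.33). The median log2 ratio of all genes was itself 0.10 for TE and 0.08 for footprints. Among all genes STE6 stood at percentile 90.8 by TE and 64.3 by footprints, and BAR1 at 84.0 and 85.2. In AGG-OE the mRNA ratios of MFA1 and MFA2 were 1.09 and 0.976 and their TE ratios 0.913 and 0.902. For STE3 the footprint ratio of AGG-QC over WT-URA was 0.911 (0.569 to 1.44), so a difference was not detectable at this depth. None of the 49 listed genes of the pathway passed 2-fold in any measure.

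WT-URA against wild-type shows the empty plasmid together with everything else that separates the 2 sets of libraries. The median log2 ratio of all genes was 0.31 for mRNA signal and 0.38 for footprints, and values relative to that median are given for the genes called. In mRNA signal 2 of 8 members passed 2-fold, where 13.6% of all genes did and 11.2% were higher. They were MFA2, with 170 MPM in WT-URA against 79.3 in wild-type (ratio 2.15, log2 relative to the median 0.80), and STE2, with 888 against 443 (2.01 and 0.70). Neither passed after scaling by the median of gene ratios, and MFA2 alone passed when the 100 genes of highest signal were left out of the total. By footprints 2 of 8 passed, where 20% of all genes did and 15.8% were higher. MFA1 had 211 FPM in WT-URA against 65.8 in wild-type (ratio 3.21, interval 3.01 to 3.43, relative to the median 1.30). MFA2 had 353 against 126 (2.80, 2.67 to 2.94, relative to the median 1.11). Both stayed past 2-fold under median scaling, with log2 ratios of 1.31 and 1.12. No member passed in TE, where 3.62% of all genes did. BAR1 had the lowest TE ratio, 0.607 at percentile 1.88, with a footprint ratio of 0.979 (0.932 to 1.03) and an mRNA ratio of 1.61. MFA1 had the highest, 1.71 at percentile 95.3.

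ASG7 and AGA2, the a-specific genes outside the members, passed 2-fold in both measures. ASG7, an a-specific protein that acts on Ste4, had 190 footprints in WT-URA and 142 in wild-type from libraries of unequal depth (ratio 4.71, 3.77 to 5.90) and an mRNA ratio of 3.10, or log2 values of 1.86 and 1.33 relative to the medians. AGA2 had a footprint ratio of 2.91 (2.56 to 3.29) and an mRNA ratio of 2.26, or 1.16 and 0.87 relative to the medians. In all, 4 of 7 a-specific genes passed 2-fold by footprints and 4 of 7 by mRNA, all higher, where 15.8% and 11.2% of all genes were higher, with median log2 ratios of 1.49 and 1.01. Relative to the median of all genes, an alternative chosen after seeing the data, 4 of 7 passed by footprints and 1 of 7, ASG7, by mRNA. BAR1 and STE6 lay below that median by footprints, at -0.41 and -0.29. Of the 17 genes of the G protein and MAP kinase list, 1 passed by footprints and none by mRNA, with medians of 0.34 and 0.24. That gene was STE18, the gamma subunit (footprint ratio 2.31, 2.10 to 2.53), which was picked after its values had been seen, as were RME1, a haploid-specific repressor of meiosis (2.15), and RCE1, a protease that cleaves the a-factor precursor (2.02). These 3 were the other pathway genes past 2-fold by footprints, and no gene of the lists was lower. Relative to the median of all genes the 3 log2 values were 0.83, 0.73 and 0.64.

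**Figure D5:**
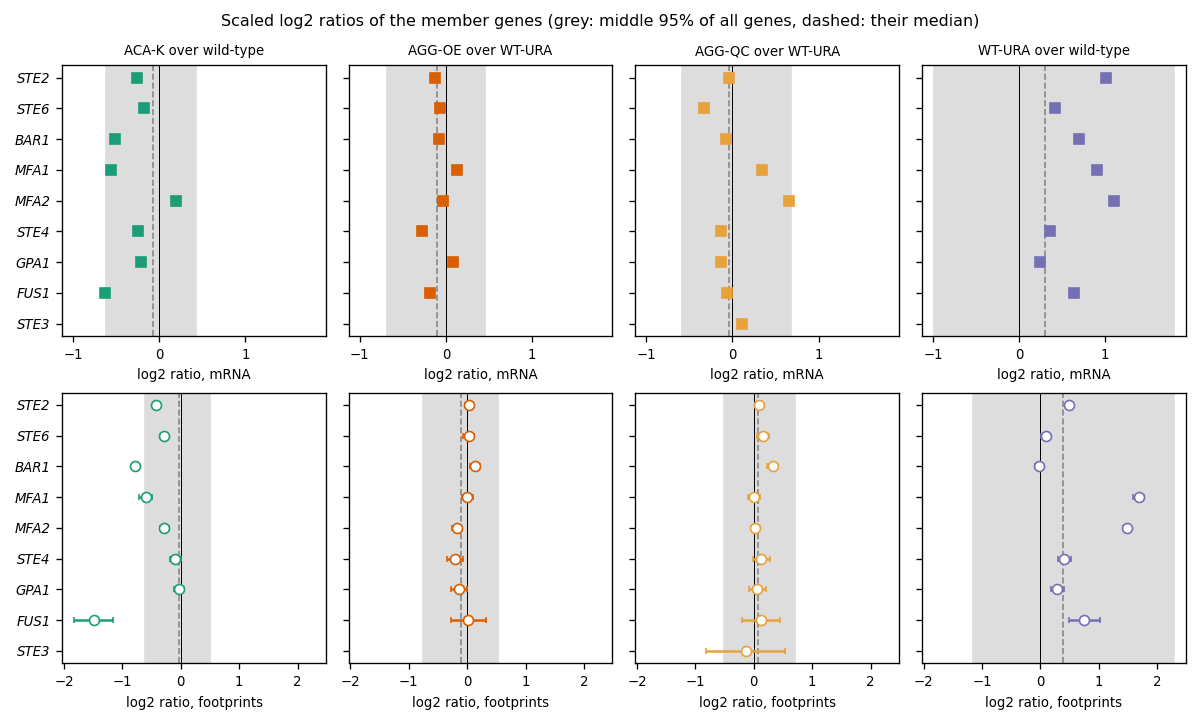
Log2 ratios of the members in the 4 comparisons (columns) for mRNA signal (upper row) and footprints with 95% counting intervals (lower row); grey marks the middle 95% of all genes and the dashed line their median. FUS1, at -1.49 in footprints of ACA-K over wild-type, lies outside the grey band, as do BAR1 at -0.78 and, by mRNA signal, FUS1 at -0.63, and all members lie inside it in WT-URA over wild-type, where the band is widest.

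Of 12 pheromone-induced genes, 5 are listed in every strain (FUS1, AGA1, KAR4, PRM4 and PRM5) and 7 in none (FUS2, FIG1, FIG2, PRM1, PRM2, PRM3 and PRM6). The 17 genes of the G protein and MAP kinase list, the 8 of pheromone processing, the 4 silencing genes SIR1 to SIR4 and the 4 other haploid genes AXL1, RME1, NEJ1 and HO are listed in all 5 strains. Over the 8 lists, 47 of 63 genes are listed in all strains, 2 in part of them and 14 in none.

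The genes most like each member were sought by the distance between centred log2 profiles over 10 values, the scaled mRNA signal and footprints of the 5 strains, among 4087 genes that passed a minimum footprint count in every strain. The distances describe 10 libraries that share their scaling and set, and are no test. STE2 was nearest to MCD1, KCC4 and SIC1 (distances 0.285, 0.334 and 0.350 against a median of 1.21). STE6 was nearest to PAP2, MET7 and MCM5 (0.127 to 0.208), BAR1 to APM1, MRPL24 and PEX31 (0.308 to 0.388), STE4 to PCF11, SMD1 and FMP25 (0.120 to 0.165) and GPA1 to BIM1, UNG1 and YPR148C (0.166 to 0.183). MFA1 was nearest to ICS2, ATP15 and DLD1 (0.635, 0.668 and 0.674 against a median of 2.29), and MFA2 to SFK1 at 0.207, then SED1 and EGH1. FUS1, itself below that minimum, was nearest to SVP26, ATP7 and ATP15 (0.441 to 0.611).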

How the data were processed

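The authors aligned the reads to yeast assembly R63 (Bowtie 1.0.0 in the submitters' processing notes), kept uniquely mapped reads, left out genes by their own coverage filters, and deposited the raw count of footprints at each codon and its sum for each gene. The mRNA sum per gene was deposited by the authors as a whole number of unnamed unit and was treated as a signal. The other deposited columns, of other units, are the per-codon counts as one text field and the gene length. Codon identity was not used here.

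The members and gene lists were chosen with earlier results of these data known. Values were scaled per 1000000 (FPM and MPM) to the total over 4964 genes listed in all 5 strains, and TE is FPM over MPM. Genes were called at 2-fold. Footprint ratios have exact conditional binomial (Clopper-Pearson) 95% intervals, which cover counting error only, and PCR copies are not independent molecules. Footprints per strain ranged from 6011287 to 29706058. Named genes are all members, the list genes that are listed in part of the strains or past 2-fold in the same direction for mRNA and footprints with a minimum number of footprints in 1 strain, and the 3 most like genes per member, while genes named after their values were seen are marked. Alternatives were median-of-ratios scaling, a total without the 100 genes of highest signal, a minimum number of footprints in both strains, leaving out the first 100 codons (25% in short genes), a pseudo-count of 1, and a 1.5-fold threshold. Gene symbols were looked up in RefSeq (assembly R64) by locus name, with 5269 of 5373 found, and nothing else was taken from it except which mating-type genes it holds. Sequences of the members were not analysed here. The functions were tested on simulated data. The scripts ran in Python 3.11.15 with matplotlib 3.10.9, pandas 2.3.3, scipy 1.17.1 and numpy 2.4.6.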

Additional observations from a re-analysis of the deposited data

How the results depend on the processing

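No paired analysis was possible because each strain has 1 library of each kind. Of 423 member values under an alternative, 390 kept their sign and 33 did not, and no called value turned round. Counts of members past 2-fold moved as follows. At 1.5-fold they were, for mRNA, 1 (ACA-K over wild-type), 1 (AGG-QC over WT-URA) and 5 (WT-URA over wild-type). By footprints the count in WT-URA over wild-type was 3 at 1.5-fold and 3 with the pseudo-count. Many genes outside the set passed there too, as the counts over all genes below show. The median log2 footprint ratio of all genes in that comparison was 0.84 with the pseudo-count in place of 0.38. For footprints in ACA-K over wild-type the count was 3 at 1.5-fold, 0 with the minimum count in both strains and 0 with the pseudo-count. For TE it was 1, 1 and 2 at 1.5-fold in ACA-K, AGG-QC and WT-URA. For mRNA in WT-URA over wild-type it was 0 under median-of-ratios scaling and 1 without the 100 genes of highest signal. Relative to the median of all genes, chosen after seeing the data, 1 of 7 a-specific genes passed by mRNA in that comparison in place of 4.

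Counts over all genes followed the threshold and the depth limit. At 1.5-fold they were 202 (mRNA), 240 (footprints) and 309 (TE) of 5152 genes for ACA-K, and 271, 376 and 223 of 5022 for AGG-OE. They were 308, 260 and 398 of 5070 for AGG-QC, and 1843, 2257 and 607 of 5049 in WT-URA over wild-type. With the minimum count, which tests fewer genes, they were 16, 18 and 19 for ACA-K, 15, 15 and 2 for AGG-OE, 28, 34 and 10 for AGG-QC, and 67 for TE of WT-URA. Leaving out the first codons gave 125 (footprints) and 130 (TE) for ACA-K, 98 and 90 for AGG-OE, and 102 (TE) for AGG-QC. The pseudo-count gave 22 (footprints) for ACA-K, 6 (footprints) and 8 (TE) for AGG-OE, 19 and 108 for AGG-QC, and 2140 and 813 for WT-URA over wild-type. Beyond the construction of each alternative, the cause was not tested.

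Median-of-ratios scaling moved the share of higher calls over all genes to 49.5% in place of 82.6% (mRNA) and 49.9% in place of 79.4% (footprints) in WT-URA over wild-type, to 58.3% in place of 44% (mRNA) in ACA-K, to 45.5% and 42.6% in place of 18.2% (mRNA) and 23.7% (footprints) in AGG-OE, and to 43.9% in place of 64.7% (TE) in AGG-QC. Under it STE6 was -0.28 in place of 0.09 in footprints of WT-URA over wild-type. Depth limits FUS1 and STE3 most.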
